A study of Mus musculus with 35 samples.

Results

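Acetylation of histone H3 at lysine 27 (H3K27ac) was followed at 1110 genomic regions that carried no H3K27ac peak in mouse embryonic fibroblasts (MEF), had one after 3 days of reprogramming and also had one in embryonic stem cells (ESC). To find them, the deposited peaks of all 12 H3K27ac libraries on chromosomes 1 to 19 and X were merged where they shared at least 1 bp, which gave 179334 regions. A region was kept when it had no peak in the 2 MEF libraries and a peak in each of the 3 day 3 and 2 ESC libraries. The regions were thus chosen by their MEF, day 3 and ESC values of H3K27ac, which are given only as a description. The tests concern H3K27ac at days 6 and 9 and the binding of the transcription factor KLF4, which the rule does not read. Day 6 and day 9 peaks took part in the merging, however, so a region joined by such a peak carries it by construction. With only the MEF, day 3 and ESC lists merged, 1237 regions met the rule, 1057 of the 1110 (95.2%) overlapped one of them, and H3K27ac was at 54.4% on day 6 and 91.3% on day 9, against 55.7% and 90.6% for the 1110. In the plots and comparisons they stand beside 28229 regions with a peak in both ESC libraries and in no MEF or day 3 library (late ESC regions), 2329 regions gained on day 3 without any ESC peak (day 3 regions absent from ESC), and 11159 regions with peaks in all MEF, day 3 and ESC libraries (shared regions).

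H3K27ac marks active promoters and enhancers, and its arrival at a site that lacked it is commonly used to map an enhancer being switched on. When fibroblasts are reprogrammed by OCT4 (Pou5f1), KLF4, SOX2 and MYC, fibroblast enhancers are shut down and pluripotency enhancers are activated in stages, many of them late. KLF4 is a zinc finger protein that binds GC-rich DNA, acts both as an induced factor and as a normal part of the pluripotency network in ESC, and also occupies enhancers in epithelial cells.

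The MEF were of the strain C57BL/6 x 129 and the genotype OKSM Col1a1/M2rtTA ROSA26, that is, with a single cassette of the 4 factors in the Col1a1 locus and the doxycycline-dependent activator in Rosa26. Both MEF H3K27ac libraries are labelled as grown without doxycycline, while a MEF input library, not analysed here, is labelled with doxycycline medium. Day 3, day 6 and day 9 cells of the same genotype were kept in ESC medium with doxycycline at 1 µg/ml and ascorbic acid at 50 µg/ml, so that the factors, the medium and ascorbic acid changed together and cannot be told apart. Day 3 cells were unsorted, and day 6 and day 9 cells are labelled as sorted for SSEA+, the SSEA surface antigens being markers used in reprogramming. ESC were the established line V6.5, also labelled C57BL/6 x 129, in serum and LIF on irradiated feeder cells, and 2 KLF4 libraries came from V6.5 cells in 2i, that is, with a MEK inhibitor at 1 µM and a GSK3 inhibitor at 3 µM. H3K27ac had 2 MEF, 3 day 3, 3 day 6, 2 day 9 and 2 ESC libraries, and KLF4 had 2 libraries for each stage from day 3 on and for 2i, with none in MEF. The design text speaks of biological replicates. The labels give each library a batch. For H3K27ac, MEF and ESC came from DG-3458 alone and day 9 from EA-3702 alone, while day 3 and day 6 were in both. The KLF4 pairs were split between EA-3702 and DG-4040 at days 3 and 6, between EA-2697 and EA-2643 in serum ESC, and between EA-3702 and DG-3012 in 2i, with day 9 wholly from EA-3702.

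The peak lists differed in length, and their read depth is unknown. H3K27ac lists held 88070 and 88347 peaks in MEF, 41471 to 50836 on day 3, 17493 to 22462 on day 6, 43974 and 45506 on day 9, and 81971 and 81231 in ESC, and KLF4 lists held 21129 to 34640. Of 8 fibroblast genes checked (Twist1, Twist2, Prrx1, Col1a1, Col1a2, Col3a1, Thy1 and Zeb1), all 8 had an H3K27ac peak in MEF and 7 or 8 on day 3. At days 6 and 9 there were 4, with none at Twist2, Col1a2, Col3a1 and Thy1, and in ESC 4 or 5. Of 7 ESC genes (Pou5f1, Sox2, Nanog, Esrrb, Zfp42, Tdgf1 and Dppa3), 3 had one in MEF, 1 or 2 on day 3 and 1 on day 6. On day 9 there were 6, and in ESC 7. Of 4 trophoblast genes, 2 or 3 had one in MEF, 0 or 1 on day 3, 0 on day 6, 2 or 3 on day 9 and 4 in ESC. For 3 endoderm genes the counts were 1 or 2, 0 or 1, 0, 0 or 1, and 3. A peak at such genes thus did not by itself name the cell type. Signal can be present where no peak was called, and in a bulk sample a change in the share of cells cannot be told apart from a change per cell.

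Sequences are shown for the 2 settings in which the regions turned out to be easiest to read: the microRNAs of the widest region and the promoters that lie inside gained regions. The widest of the 1110, chr7:3198281-3222560 (mm10, 24280 bp), covers the miR-290 cluster, a group of ESC microRNAs with 8 annotated hairpins and 15 mature microRNAs in RefSeq (GRCm38.p6, whose chromosome coordinates are those of mm10). It was chosen for display after its values were seen. The 4 mature microRNAs below share the first 6 bases of their seed, the stretch from base 2 to base 8 that pairs with targets, set here in capitals; 2 of them, miR-294-3p and miR-295-3p, have the whole seed in common.
mmu-miR-290a-3p, plus strand, chr7:3218674-3218697: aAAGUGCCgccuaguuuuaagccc
mmu-miR-291b-3p, plus strand, chr7:3219529-3219550: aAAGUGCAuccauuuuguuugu
mmu-miR-294-3p, plus strand, chr7:3220691-3220712: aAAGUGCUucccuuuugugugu
mmu-miR-295-3p, plus strand, chr7:3220815-3220837: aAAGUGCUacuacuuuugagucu

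The promoter windows run from 250 bases before to 50 bases after an annotated start (RefSeq, GRCm38.p6), read on the gene's strand. Capitals mark any match, on either strand, to the KLF-type motifs GGGNGNGGC and GGGTGTGG, the octamer ATGCAAAT, the SOX-type motifs ACAAAG and ACAATG, the AP-1 motif TGANTCA or the TATA box TATAAA; motif matches could overlap. Pou5f1 codes for OCT4, L1td1 for an RNA-binding protein of pluripotent cells, Kdm3a for a histone H3 lysine 9 demethylase and Ankrd6 for an ankyrin repeat protein. The Ankrd6 window holds 4 GGGNGNGGC matches and the Pou5f1 window 1, the Kdm3a window has 1 AP-1 match, and none of these letters occurs in the L1td1 window. A KLF4 peak overlapped the L1td1, Kdm3a and Ankrd6 windows in 10 of 10 libraries and the Pou5f1 window in 6.
Pou5f1, plus strand, chr17:35505782-35506081: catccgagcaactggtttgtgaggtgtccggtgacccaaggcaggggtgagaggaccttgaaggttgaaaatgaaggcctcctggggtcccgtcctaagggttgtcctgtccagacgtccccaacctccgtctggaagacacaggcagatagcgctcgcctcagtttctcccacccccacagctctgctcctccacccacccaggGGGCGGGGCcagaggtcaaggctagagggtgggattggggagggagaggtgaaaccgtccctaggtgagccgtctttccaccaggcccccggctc
L1td1, plus strand, chr4:98726504-98726803: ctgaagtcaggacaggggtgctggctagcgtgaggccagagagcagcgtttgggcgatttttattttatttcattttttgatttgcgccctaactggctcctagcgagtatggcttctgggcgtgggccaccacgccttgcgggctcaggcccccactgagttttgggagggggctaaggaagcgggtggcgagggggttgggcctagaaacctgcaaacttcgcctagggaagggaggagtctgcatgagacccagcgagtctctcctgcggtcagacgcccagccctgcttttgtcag
Kdm3a, minus strand, chr6:71609090-71609389: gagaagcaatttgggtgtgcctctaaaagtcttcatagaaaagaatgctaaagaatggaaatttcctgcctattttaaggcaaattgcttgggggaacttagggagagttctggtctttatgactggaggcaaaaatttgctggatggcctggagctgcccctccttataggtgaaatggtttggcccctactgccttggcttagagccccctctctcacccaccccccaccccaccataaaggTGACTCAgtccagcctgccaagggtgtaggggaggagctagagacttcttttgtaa
Ankrd6, minus strand, chr4:32950777-32951076: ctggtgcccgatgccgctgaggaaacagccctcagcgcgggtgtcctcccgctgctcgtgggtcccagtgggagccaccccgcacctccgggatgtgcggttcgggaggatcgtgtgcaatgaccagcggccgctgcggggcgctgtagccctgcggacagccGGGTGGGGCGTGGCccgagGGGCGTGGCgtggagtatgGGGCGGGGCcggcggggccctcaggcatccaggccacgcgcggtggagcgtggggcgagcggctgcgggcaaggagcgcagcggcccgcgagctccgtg

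The gained regions were wide. Their median width was 2681.5 bp (quartiles 1845.0 and 3959.0 bp, range 503 to 24280 bp), against 743.0 bp for late ESC regions, 1176.0 bp for day 3 regions absent from ESC and 2578.0 bp for shared regions. A rule that asks for a peak in each of 5 lists can itself favour wide merged regions. Its part in the width was not tested. In 909 of the 1110 (81.9%), at least 1 base lay inside peaks of all 5 day 3 and ESC lists, with a median of 390.0 such bases. The remaining regions joined neighbouring peaks that did not all meet. A MEF peak lay within 5 kb of 37.0% of the gained regions (30.0% of late ESC regions), and the median distance to one was 7759.0 bp.

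Most of them lay away from gene ends. A protein-coding gene end (either end, since the table gives no strand) was within 2.5 kb of 17.7% of the gained regions, near the 16.1% of all 179334 merged regions, and against 14.1% when the gained regions were moved by 1 Mb, 14.5% of late ESC regions, 8.37% of day 3 regions absent from ESC and 74.6% of shared regions. At 500 bp and 10 kb the share of gained regions was 10.5% and 39.1%. With every list cut to equal length, which gave 534 regions by the same rule, it was 36.7% at 2.5 kb. They overlapped a protein-coding gene in 62.5% of cases (56.2% of all merged regions, and 50.2% after the move). Off chromosome 18, 111 of 1063 gained regions (10.4%) held a RefSeq promoter window, compared with 7.86% of all merged regions, 3.96% of late ESC regions, 2.94% of day 3 regions absent from ESC and 67.2% of shared regions, so most gained regions held no annotated promoter. Exon, intron and UTR boundaries were not used here. Chromosome 11 held 111 of the 1110 (10.0%, against 6.76% of late ESC regions) and the X chromosome 15 (1.35%, against 3.09%).

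H3K27ac was listed at fewer of the gained regions in each day 6 library than in each day 9 library. H3K27ac was found at 51.1% and 43.5% of the 1110 in the day 6 libraries of batch DG-3458, at 72.4% in the day 6 library of EA-3702, and at 89.4% and 91.9% in the day 9 libraries. The EA-3702 library was the highest of day 6. In the 2 DG-3458 lists of day 6 the peak names carry each other's replicate number. Their titles were followed here. The mean of the 3 day 6 libraries was 55.7 ± 15.0% (SD), and that of the 2 day 9 libraries 90.6 ± 1.78% (SD). The difference of 35.0 percentage points did not pass (p = 0.200 in a two-sided exact permutation test, of which 10 labelings allow no p below 0.100; adjusted p = 0.236 over 13 tests). Within batch EA-3702, which holds 1 day 6 and both day 9 libraries, the values were 72.4% against 89.4% and 91.9%; permuting within batches left 3 labelings and p = 0.333 (exact permutation test). Peaks moved by 1 Mb met 2.73% of the regions on day 6 and 7.93% on day 9. The day 6 lists were the shortest of the H3K27ac lists. With lists of equal length, which gave 534 regions by the same rule, the shares were 84.0% for day 6 and 91.6% for day 9, and the difference was 7.55 points (exact permutation test, p = 0.300).

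The other sets were lower or higher at the same days. Late ESC regions had H3K27ac in 1.06 ± 0.697% of cases over the day 6 libraries (SD) and 14.6 ± 0.468% over those of day 9 (SD), day 3 regions absent from ESC in 20.2 ± 11.7% and 52.7 ± 0.850%, and shared regions in 82.4 ± 4.69% and 96.4 ± 0.520%. The gained regions stood above late ESC regions by 63.2 percentage points on average (43.0 to 77.0, higher in 5 of 5 libraries) and above day 3 regions absent from ESC by 36.5 (32 to 38.9, 5 of 5), the latter being 10.7 points when both sets were kept to the gained set's middle width range. With 5 libraries the smallest p of an exact sign-flip permutation test is 0.0625, which both comparisons reached (adjusted p = 0.0903 each), so neither could pass 0.05. The gap to day 3 regions absent from ESC averaged 35.5 ± 3.42 points for day 6 (SD, n = 3) and 37.9 ± 0.934 for day 9 (SD, n = 2), a change of 2.49 that did not pass (exact permutation test, p = 0.500) and turned to -6.90 when only regions of the gained set's middle width range were kept. The gained regions were below the shared ones in 5 of 5 libraries, with differences from -34.8 to -4.92 points.

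**Figure D1:**
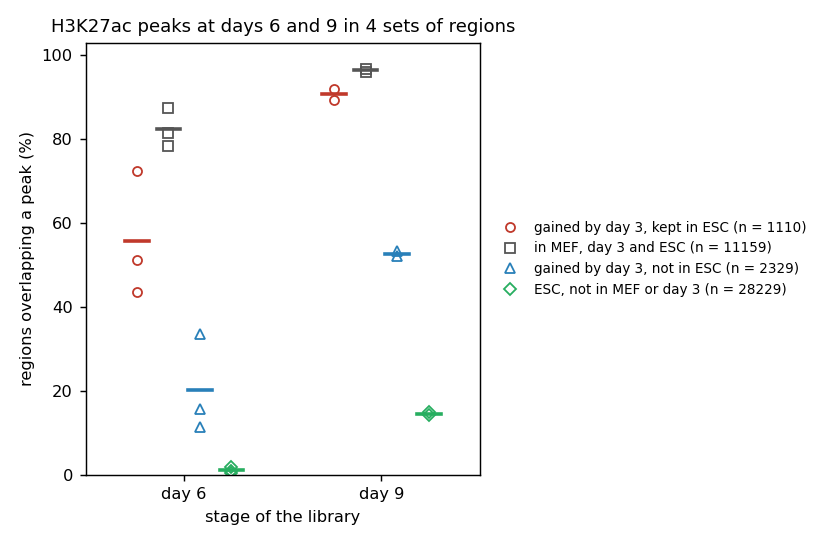
Share of regions (%) that overlapped an H3K27ac peak in each day 6 and day 9 library, for the 1110 gained regions and 3 other sets; each open symbol is 1 library and each bar the mean of 3 libraries on day 6 or 2 on day 9. The gained regions lie at 43.5% to 72.4% on day 6 and at 89.4% and 91.9% on day 9, between the shared regions and the other 2 sets.

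Counted per region, 400 of 1110 (36.0%) had H3K27ac in all 3 day 6 libraries, where 5.61% of all 179334 merged regions did, and each of the 400 also had it in both day 9 libraries. H3K27ac in both day 9 libraries was found at 981 (88.4%, background 17.6%). A group of 148 (13.3%, background 7.99%) had no day 6 peak and a peak in both day 9 libraries, and 73 (6.58%, background 73.8%) had none at either day. No gained region had H3K27ac in all day 6 libraries and no day 9 library (background 0.000558%). The deposited fold enrichment over the authors' background, taken at the strongest peak of each region, had a day 3 median of 4.32 to 4.53, a day 6 median of 3.84 to 4.16, day 9 medians of 7.96 and 8.27, and ESC medians of 6.15 and 6.05. These medians cover only regions with a peak in that library and do not measure a change between stages. The median fold of all peaks of a list was 3.16 to 4.21 on day 3 and 3.78 to 4.25 on day 6. On day 9 it was 3.88 and 3.99, and in ESC 4.04 and 4.07.

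KLF4 was already at most of these regions on day 3. Both day 3 KLF4 libraries had a peak in 790 of 1110 (71.2%), where 8.43% of all merged regions did. Day 6 had 722 (65.0%, background 7.41%), day 9 had 739 (66.6%, background 9.18%), and there were 589 in serum ESC (53.1%, background 7.26%) and 346 in 2i (31.2%, background 7.02%). At least 1 KLF4 library marked 1036 regions (93.3%, background 26.0%), all 10 marked 260 (23.4%, background 2.44%), and none marked 74 (6.67%, background 74.0%). The median width of all merged regions was 542.0 bp. Of the shared regions, which were about as wide as the gained ones, 91.4% had at least 1 KLF4 library, 26.6% had all 10 and 8.59% had none.

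By library, KLF4 peaks overlapped 85.0% and 73.2% of the gained regions on day 3, where the day 6 libraries had 68.2% and 75%, those of day 9 70.5% and 70.3%, and serum ESC 55.0% and 70.1%. The 2i libraries had 35.9% and 48.2%. Both 2i libraries were below every other library, and the day 3 library of EA-3702 was the highest; serum ESC overlapped the range of days 6 and 9. Means were 79.1 ± 8.35%, 71.6 ± 4.78%, 70.4 ± 0.127%, 62.6 ± 10.6% and 42.1 ± 8.66% (SD, n = 2 each). The test between the 5 groups did not pass after adjustment (F = 7.16 with p = 0.0265 from 113400 labelings of an exact two-sided permutation, adjusted p = 0.0867), and without 2i the F was 1.79 (exact permutation test, p = 0.238). The slope from day 3 to day 9 was -1.46 percentage points per day (exact permutation test, p = 0.156, adjusted p = 0.202). With lists of equal length it was -0.375 (exact permutation test, p = 0.489). Within batch EA-3702 the shares were 85.0% on day 3, 68.2% on day 6, 70.5% and 70.3% on day 9, and 35.9% in 2i. KLF4 peaks moved by 1 Mb met 2.61% to 5.41% of the regions, depending on the library.

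The gained regions carried KLF4 far more often than late ESC regions in 10 of 10 libraries, by 53.4 percentage points on average (range 20.0 to 78.7; p = 0.00195, the smallest that the 1024 sign flips of an exact permutation test can give, and adjusted p = 0.0254). This was the only one of the 13 tests to pass after adjustment. At day 3 the shares were 79.1 ± 8.35% against 5.5 ± 1.22%, and in 2i 42.1 ± 8.66% against 18.1 ± 3.06% (SD, n = 2 each). The sets differed in width. With both kept to the middle width range of the gained regions (554 gained and 2684 late ESC regions) the mean difference was 33.3 points (exact permutation test, p = 0.00977), and gained regions were higher in 8 of 10 libraries. The 2 exceptions were the 2i libraries, with 31.9% of gained against 37.4% of late ESC regions and 43.3% against 48.8%; serum ESC had 54.3% against 41.1% and 73.1% against 62.2%, and the smallest gap of day 3 to day 9 was 39 points. With a 1 kb window about each midpoint the mean difference was 40.9 (p = 0.00195, exact permutation test). Keeping both sets to the gained regions' middle range of ESC peak rank gave 49.3 points. Over day 3 to day 9 alone the difference was 66.2 points in 6 of 6 libraries (exact permutation test, p = 0.0312, the smallest possible, adjusted p = 0.0867), and it changed by -2.20 points per day (p = 0.0222, exact permutation test, adjusted p = 0.0867), or by -4.57 per day in the middle width range.

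**Figure D2:**
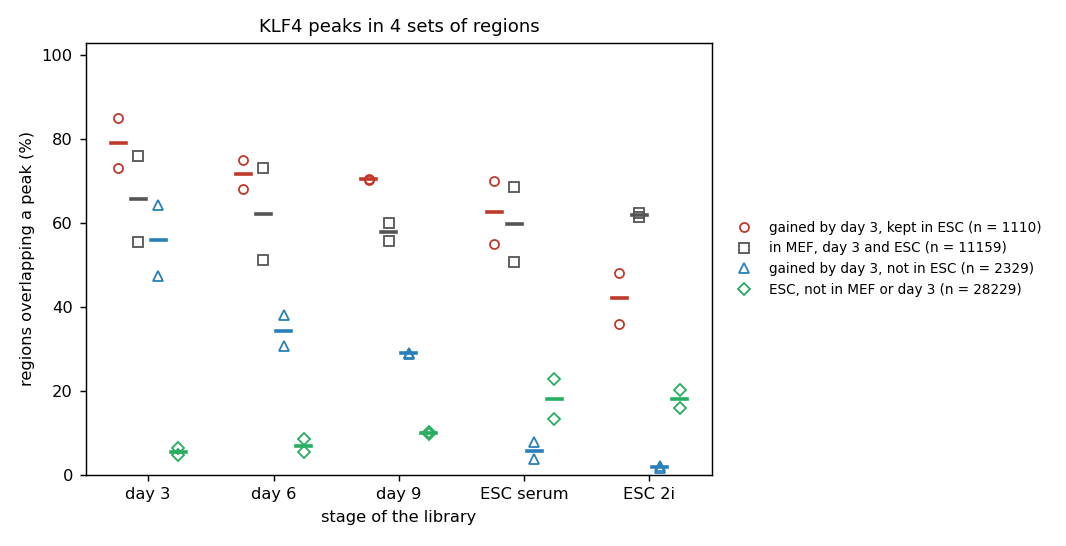
Share of regions (%) that overlapped a KLF4 peak in each of 10 libraries, for the gained regions and 3 other sets; each open symbol is 1 library and each bar the mean of 2. The gained regions lie at 73.2% and 85.0% on day 3 and at 35.9% and 48.2% in 2i, and late ESC regions stay at 22.8% or below.

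KLF4 peaks were rare in ESC at regions that were acetylated on day 3 and had no ESC peak, and were found in 35.9% to 70.1% of the gained regions. Day 3 regions absent from ESC had KLF4 at 55.9 ± 11.8% on day 3, 29.0 ± 0.0304% on day 9, 5.78 ± 2.76% in serum ESC and 1.95 ± 0.334% in 2i (SD, n = 2 each). The gap to the gained regions was 34.0 ± 8.64 points over the 6 libraries of day 3 to day 9 (SD) and 48.5 ± 11.7 over the 4 ESC and 2i libraries (SD), a difference of 14.5 points that did not pass (p = 0.0524 over the 210 labelings of an exact permutation test; adjusted p = 0.0903). With regions of the gained set's middle width range it was 35.0 points (p = 0.00476, exact permutation test, the smallest possible), with lists of equal length 30.8 (p = 0.00476, exact permutation test), and without 2i 22.8 (exact permutation test, p = 0.0357). It was smaller with a q-value of at most 0.01 (6.06, exact permutation test, p = 0.471), with 50% overlap (8.45, p = 0.100, exact permutation test), with the gained regions alone limited to their middle range of ESC peak rank (11, p = 0.152, exact permutation test) and with only the rule's lists merged (11.4, p = 0.114, exact permutation test).

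Against shared regions the gained ones were lower in KLF4 in both 2i libraries, by differences of -25.5 and -14.1 points. In serum ESC they were above by 4.26 and 1.37 points, and over day 3 to day 9 they were above in 5 of 6 libraries, the exception being day 6 EA-3702 (-4.90). On average the gained regions were above the shared ones by 11.8 ± 9.77 points over day 3 to day 9 (SD, n = 6) and differed by -8.50 ± 13.9 over ESC and 2i, where the 2 kinds of library had opposite signs (SD, n = 4), a shift of -20.3 points (exact permutation test, p = 0.0333, adjusted p = 0.0867) that did not pass after adjustment. This comparison was added after the data were seen. With equally long lists the shift was -7.67 (p = 0.290, exact permutation test), and without 2i it was -8.96 (exact permutation test, p = 0.321). From serum ESC to 2i the gap to shared regions differed by -22.6 points, where 2 against 2 libraries cannot give a p below 0.333.

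Several courses of KLF4 binding ran through the 1110. KLF4 was in both libraries on day 3, day 6, day 9 and serum ESC at 472 (42.5%, background 3.14%, shared regions 30.0%). At 3 regions (0.270%, background 1.05%) KLF4 was in no library of the 3 days and in both of serum ESC. At 42 regions (3.78%, background 0.702%) it was in both libraries of each of the 3 days and in no ESC or 2i library. At 14 (1.26%, background 0.713%) it was in both day 3 libraries and in no later library. Day 3 regions absent from ESC took these courses in 13.3% and 8.37% of cases, and shared regions in 0.574% and 0.538%. KLF4 was in both serum ESC and neither 2i library at 143 gained regions (12.9%, background 1.11%, shared regions 2.40%). It was in both 2i and neither serum ESC library at 6 (0.541%, background 0.713%, shared regions 2.22%). No KLF4 on day 3 and KLF4 in both serum ESC libraries was found at 19 (1.71%), near the background of 1.97%. Where a gained region had a peak, the median percentile of its strongest KLF4 peak (100 being the strongest of the list) was 85.6 and 85.3 on day 3. It was 71.4 and 84.0 on day 6, 82.6 and 82.0 on day 9, 72.6 and 78.0 in serum ESC, and 63.5 and 69.3 in 2i. For shared regions it was 60.3 to 67.8 over all KLF4 libraries, with 67.4 and 67.6 in 2i. A region with several peaks is ranked by its best one, which favours wide regions.

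Gained regions with KLF4 on day 3 had H3K27ac more often at days 6 and 9 in each of the 5 libraries. Of the 790 with KLF4 in both day 3 libraries, 65.9% had H3K27ac on day 6 and 96.6% on day 9 (means over libraries). Of the 143 without KLF4 in either day 3 library, the shares were 23.8% and 66.4%. The difference averaged 37.3 points (27.3 to 44.6, higher in 5 of 5 libraries; exact sign-flip permutation test, p = 0.0625, the smallest possible, adjusted p = 0.0903). It was 19.3 points within the middle width range and 1.62 when every list was limited to its top 17493 H3K27ac or 21129 KLF4 peaks and the regions were found anew. By the number of KLF4 libraries, H3K27ac on day 6 was at 12.2 ± 11.8% of the 74 regions with none, 30.6 ± 14.7% of the 270 with 1 to 5, 63.6 ± 16.7% of the 506 with 6 to 9 and 78.6 ± 13% of the 260 with all 10 (SD, n = 3 libraries). At day 9 the shares were 53.4 ± 6.69%, 78.1 ± 4.19%, 97.9 ± 0.699% and 100.0 ± 0% (SD, n = 2). Width moved with both: the median width of these 4 groups was 1374.0, 1906.5, 2849.0 and 4196.5 bp. Among the narrowest 278 gained regions (median 1276.0 bp) KLF4 of day 3 to day 9 was at 44.5% and day 6 H3K27ac at 24.2%, and among the widest 278 (median 5464.0 bp) at 92.2% and 78.3%.

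**Figure D3:**
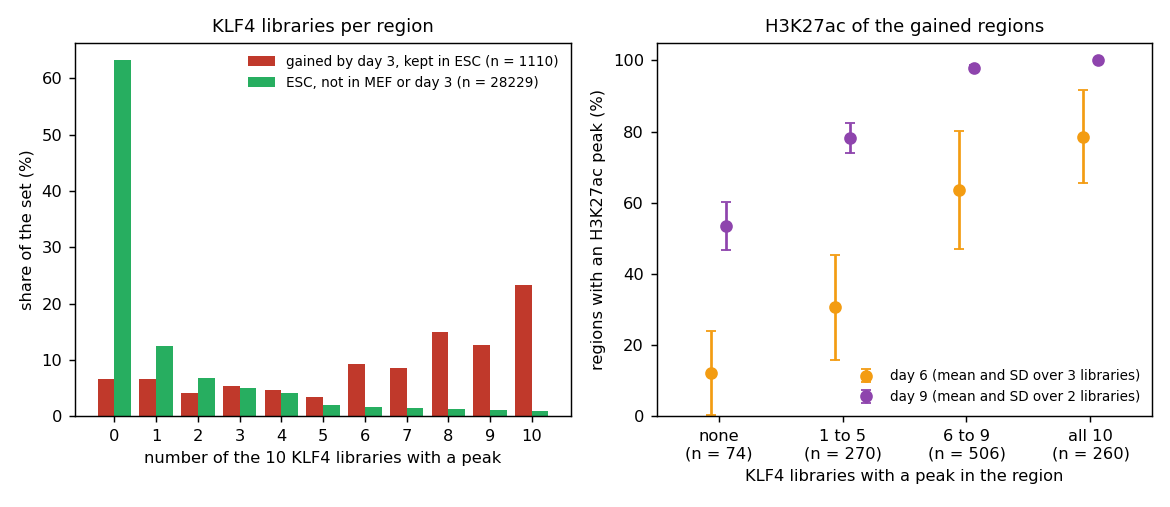
Left, share (%) of the 1110 gained regions and of 28229 late ESC regions by the number of KLF4 libraries, of 10, with a peak; 23.4% of the gained and 0.949% of the late ESC regions had all 10. Right, share (%) of gained regions with an H3K27ac peak on day 6 (mean and SD over 3 libraries) and day 9 (over 2) by that number; the day 6 mean goes from 12.2% with no KLF4 library to 78.6% with all 10.

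The nearest protein-coding genes were 919 in number, of which 772 had 1 gained region, 115 had 2 and 32 had 3 or more. Genes of the lists used here were nearest to a gained region in 8 of 42 cases for pluripotency (19.0%), 7 of 31 for chromatin and DNA methylation (22.6%), 4 of 17 for the KLF family (23.5%), 6 of 40 for signalling (15.0%), 3 of 20 for extraembryonic genes (15.0%), 4 of 46 for epithelial genes (8.70%) and 3 of 42 for fibroblast genes (7.14%), against 919 of 21631 protein-coding genes (4.25%). Each of the 7 lists was thus above the share of all protein-coding genes. Day 3 regions absent from ESC were also above their own share (6.84% of all) for each list. Their shares were 29.4% for the KLF family, 20.0% for signalling, 16.7% for fibroblast and 15.0% for extraembryonic genes. They were 10.9% for epithelial, 9.68% for chromatin and 7.14% for pluripotency genes. Late ESC regions were also nearest to larger shares of 6 of the lists, namely 95.2% for pluripotency, 85.0% for signalling and for extraembryonic genes, 83.9% for chromatin, 76.5% for the KLF family and 65.2% for epithelial genes, with 40.5% for fibroblast genes, against 41.0% of all protein-coding genes. For shared regions (41.3% of all) the shares went from 10.0% for extraembryonic and 26.2% for pluripotency genes to 82.5% for signalling and 90.3% for chromatin genes. Of the 68 named regions, 17 still overlapped a region that met the rule with lists of equal length, 39 with a q-value of at most 0.01 and 26 with the top 50% of each list. With only the rule's lists merged 66 did, the exceptions being the Tead4 region and 1 at Epb41l4a. Nearness says nothing about which gene a region acts on. In the gene paragraphs a percentile gives the rank, by the deposited −log10 p, of the strongest peak of a region in its own list. The lists differ in length, from 17493 to 88347 peaks for H3K27ac and from 21129 to 34640 for KLF4, so percentiles and folds of different libraries are set side by side as each list's own values and do not measure a change between stages.

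Pluripotency genes nearest to a gained region were Pou5f1, L1td1, Fgf4, Fbxo15, Tet2, Sall1, Mycn and Klf4. The Sall1 and Mycn regions lay 226.6 and 226.2 kb from the gene. The L1td1 region (chr4:98724750-98731952) overlaps the gene and its promoter shown above. Its H3K27ac peaks stood at the 99.1, 98.1 and 96.9 percentile on day 3, 91.4, 97.8 and 96.0 on day 6, 99.7 and 99.6 on day 9, and 99.6 and 99.3 in ESC, with none in MEF. It was thus near the top of every list from day 3 on. KLF4 was present in 10 of 10 libraries, at percentiles of 77.9 to 98.3. The Fgf4 region (chr7:144852747-144869604) overlaps Fgf4, the fibroblast growth factor made by ESC. H3K27ac was at the 88.7, 87.4 and 87.2 percentile on day 3, 81.1, 91.7 and 80.6 on day 6, 87.4 and 84.9 on day 9, and 98.9 and 99.0 in ESC. The region was thus in the upper part of each of these lists, and KLF4 was in 10 of 10 libraries. Fbxo15, an F-box gene long used as a reporter of pluripotency, had KLF4 at the 98.8 percentile or above in every library and H3K27ac at 52.7 to 81.4 over days 3 and 6, 89.5 and 88.7 on day 9 and 99.6 in both ESC libraries.

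At Pou5f1 the day 3 H3K27ac peaks lay at the gene start, and a KLF4 peak lay upstream of it in every KLF4 library and at or near the start in several (region chr17:35497746-35510996, gene start at 35506032). The day 3 H3K27ac peaks covered the gene start, the widest ending 0.553 kb after it, at a deposited fold of 6.33, 4.01 and 2.75. Neither DG-3458 library of day 6 had a peak in the region, and the EA-3702 library had 1 upstream of it with a fold of 2.27. Both day 9 libraries had peaks upstream (fold 6.47 and 7.23) and at the start (4.39 and 6.07). In ESC 1 peak ran from 8.29 kb before to 4.55 kb after the start in one library and from 8.17 kb before to 2.51 kb after it in the other, with a fold of 38.3 and 27.7. KLF4 had a peak in 10 of 10 libraries over the same 255 bases, chr17:35503927-35504181, 2.1 to 1.85 kb upstream, where the distal enhancer of the gene is known to lie. The KLF4 fold there was 6.04 and 2.13 on day 3, 12.3 and 7.87 on day 6, 24.4 and 32 on day 9, 10.5 and 10.4 in serum ESC, and 3.53 and 12 in 2i. In both ESC and both day 9 libraries an H3K27ac peak overlapped this stretch, and no day 3 or day 6 H3K27ac peak did. A KLF4 peak also covered the gene start in 6 libraries, namely 1 of day 3 (fold 3.01), 1 of day 9 (3.81), both of serum ESC (3.37 and 3.22) and both of 2i (6.29 and 3.45). In the other day 3 library a KLF4 peak began 0.09 kb after the start, within the H3K27ac peaks of day 3, and its fold of 3.99 was above the 2.13 of the upstream peak in the same library.

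The cassette holds copies of Pou5f1, Klf4, Sox2 and Myc, and reads from its copies cannot be told apart from reads of the genes' own exons. The day 3 H3K27ac peaks at Pou5f1 lie over the start of the gene, where the gene and the cassette cannot be told apart, and the KLF4 stretch 1.85 kb or more upstream lies outside the transcribed gene. The gained region at Klf4 (chr4:55527452-55528664) lies in the gene, with H3K27ac folds of 2.14, 2.33 and 3.15 on day 3, no peak in any day 6 library, 2.35 and 3.34 on day 9, and 5.01 and 5.59 in ESC. The region at Col1a1 (chr11:94951707-94953346), at the locus that holds the cassette, had H3K27ac folds of 8.32 and 8.71 on day 9 and 2.83 to 4.99 in all other libraries with a peak. No base of the Klf4 or Col1a1 region was common to all 5 lists. These values are of the regions and not of the whole genes. The Klf4 gene had 1 H3K27ac peak in each MEF library and 3, 4 and 3 in the day 6 libraries. The Col1a1 gene had 7 in each MEF library and 1 in each day 6 library. Sox2 had no H3K27ac peak in any day 3 or day 6 library, and 1 in each MEF, day 9 and ESC library. KLF4 peaks in Sox2 numbered 1 and 2 in the day 3 libraries. Myc had 2 H3K27ac peaks in each MEF library and 3, 2 and 2 on day 3. Each day 3 library had 4 KLF4 peaks in Myc.

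**Figure D4:**
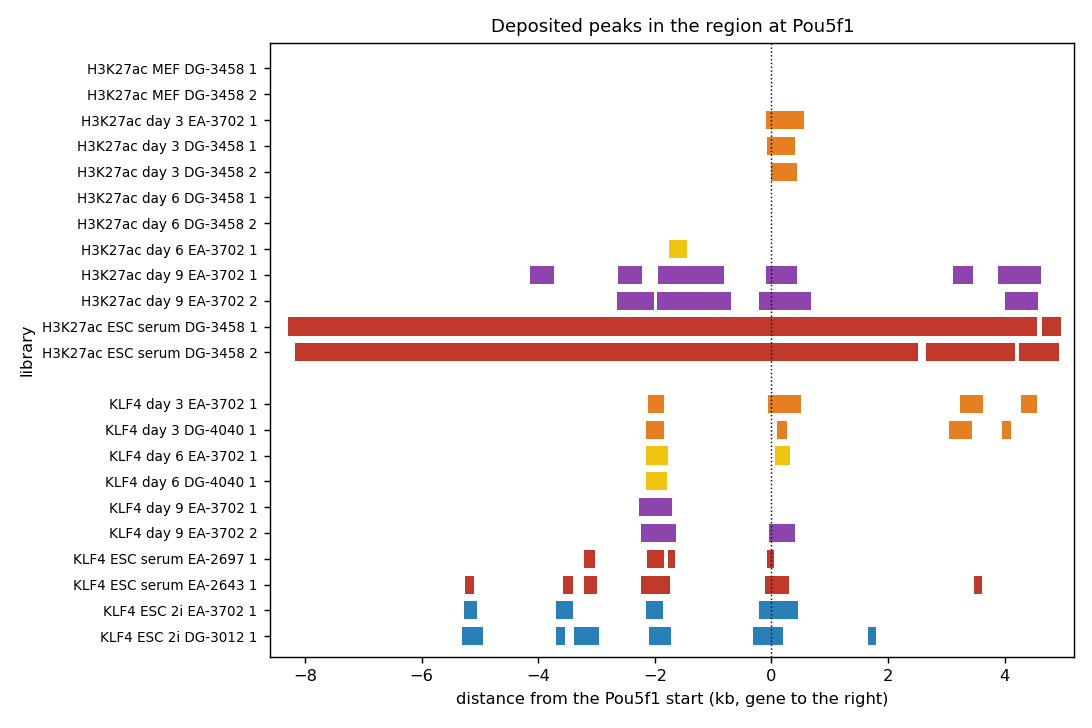
Deposited peaks in the Pou5f1 region, 1 row per library, against distance from the gene start (kb, gene to the right); each bar is 1 peak, coloured by stage. KLF4 peaks of all 10 libraries share the stretch 2.1 to 1.85 kb upstream, 6 libraries also have a KLF4 peak over the start, and the 3 day 3 H3K27ac peaks lie at the start.

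The miR-290 region was acetylated in every library from day 3 on. The order of 2 of its KLF4 sites differed between reprogramming cells and 2i. Its strongest H3K27ac peak had a fold of 16.8, 11.3 and 11.7 on day 3, 5.74, 6.86 and 10.4 on day 6, 28.3 and 34.2 on day 9, and 42.7 and 38.2 in ESC. The strongest KLF4 peaks of all 6 libraries of day 3 to day 9 met at chr7:3213599-3213901, 4.74 kb before the first mature microRNA, with folds of 23.3 and 8.0 on day 3, 9.25 and 12.8 on day 6, and 26.1 and 24.5 on day 9. In serum ESC the folds at that site were 5.90 and 4.50, and in 2i 1 library had a fold of 2.83 and the other had no peak. A second site, chr7:3201232-3201524, 17.1 kb before the first mature microRNA, had no KLF4 peak in either day 3 library, folds of 2.43 to 4.43 at days 6 and 9, and 5.90 and 6.87 in serum ESC and 8.15 and 3.97 in 2i. The second site was above the first in 1 serum ESC library (EA-2643) and level with it in the other. In the 2i library of DG-3012 the strongest KLF4 peak lay at neither site but at chr7:3206456-3206862 (fold 7.29). The 2 sites compared were picked after the peaks were seen, and their values have no test.

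Chromatin genes near gained regions included Tet2, a DNA hydroxymethylase that is also on the pluripotency list, the demethylases Kdm3a and Kdm5b, and Jarid2, a partner of Polycomb repressive complex 2. The Tet2 region (chr3:133513747-133528493, overlapping the gene) had H3K27ac at the 56.7, 69.4 and 61.0 percentile on day 3, at 36.4 and 41.5 in 2 of the 3 day 6 libraries, at 85.4 and 84.7 on day 9, and at 98.2 and 96.7 in ESC. No peak was called there in the remaining day 6 library, and KLF4 was there in 10 of 10 libraries. The Kdm3a region (chr6:71607036-71611330, holding the promoter shown above) had a KLF4 peak in 10 of 10 libraries, with folds of 31.7 and 14.6 on day 3, 17 and 16.5 on day 6, 7.64 and 12 on day 9, 13.4 and 9.64 in serum ESC, and 4.79 and 4.63 in 2i. H3K27ac at Kdm3a ranked at 82.1 to 84.4 on day 3 and 89.8 and 90.2 in ESC, and had a peak in 4 of the 5 day 6 and day 9 libraries. Jarid2 (18.1 kb from the region chr13:44702107-44712672) had H3K27ac percentiles of 72.9 to 88.3 on day 3, 18.2 to 53.9 on day 6, 94.2 and 94.4 on day 9, and 99.7 and 99.1 in ESC. Kdm5b, Hdac2, Crebbp and Eed, in order a demethylase, a deacetylase, an acetyltransferase and a Polycomb subunit, had KLF4 at their regions in 9, 10, 8 and 8 libraries. The Hdac2 and Eed regions lay 35.6 and 25.2 kb from the gene.

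In the KLF family, the Klf13 region (15.6 kb from the gene, chr7:63954517-63960231) was at the 99.1 percentile or above for H3K27ac in every day 3, day 6, day 9 and ESC library, with no MEF peak, and at the 95.5 percentile or above for KLF4 in every library. The Klf12 region (chr14:100210676-100214327, in the gene) had H3K27ac at 79.5 to 85.7 on day 3, 95.1 and 88.7 on day 9, and 22.4 and 28.1 in ESC. Klf9 had 2 gained regions. The wider of them (46.1 kb away, chr19:23083073-23095076, 12004 bp) had H3K27ac percentiles of 49.4, 75.8 and 59.4 on day 3, no peak on day 6, 1.14 and 24.4 on day 9, and 99.7 and 99.8 in ESC. Of the 6 libraries of day 3 to day 9 only 1 day 3 library had a KLF4 peak there (percentile 23.5), while all 4 ESC and 2i libraries had one at 99.1 to 99.8.

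Signalling genes were represented by Nodal and Id4 of the TGF-beta and BMP pathways, Spry2 and Dusp6, which restrain receptor tyrosine kinase signalling, the Notch ligand Jag1, and Tead4, a DNA-binding partner of YAP. The Nodal region (chr10:61412294-61420266, overlapping the gene) had H3K27ac at 36.8, 30.9 and 36.5 on day 3, 69.4, 28.6 and 62.4 on day 6, 87.7 and 89.0 on day 9, and 98.4 and 99.1 in ESC. KLF4 ranked at 88.8 to 99.9 there in 10 of 10 libraries. At Id4 (6.95 kb away, chr13:48251107-48254168) H3K27ac ranked at 89.0, 95.1 and 91.2 on day 3, 67.5 to 83.8 on day 6, 88.9 and 91.4 on day 9, and 78.0 and 83.9 in ESC. The regions nearest to Jag1, Spry2 (26.3 kb away), Dusp6 (192.8 kb away) and Tead4 had KLF4 in 10, 10, 8 and 9 libraries.

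Of 4 epithelial genes checked, 2 had an H3K27ac peak in MEF, 2 on day 3, 2 on day 6, and all 4 on day 9 and in ESC. They were not the same 2 throughout: Epcam and Esrp1 had none in MEF or on day 3, and Krt8 and Esrp1 had none on day 6. The gained region nearest to Epcam, an epithelial adhesion gene, lies apart from the gene (30.9 kb away, chr17:87600848-87605094) and had H3K27ac at 88.7, 85.1 and 84.8 on day 3, 76.0, 38.2 and 75.7 on day 6, 92.3 and 90.5 on day 9, and 78.2 and 73.6 in ESC, with KLF4 at 87.2 to 98.7 in 10 of 10 libraries. Grhl2, which codes for an epithelial transcription factor, had a region in the gene (chr15:37231387-37235347) with H3K27ac at 47.2 to 61.0 on day 3 99.3 and 98.3 on day 9, and 69 and 49.2 in ESC, and KLF4 in only 3 libraries. Ehf had 2 regions and Tjp1, a tight junction gene, had 1. Of the fibroblast list, Runx1 (chr16:92638525-92641152, in the gene) ranked at 71.8 to 87.1 for H3K27ac on day 3 and at 6.81 and 28.1 in ESC; its KLF4 was in all 6 libraries of day 3 to day 9 at 78.8 to 98.3, and in 1 ESC library at 7.15. The extraembryonic genes nearest to a gained region were Gata3 (105.7 kb away), Eomes (69.8 kb away) and Tead4. Their regions had KLF4 in 7, 9 and 9 libraries.

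**Figure D5:**
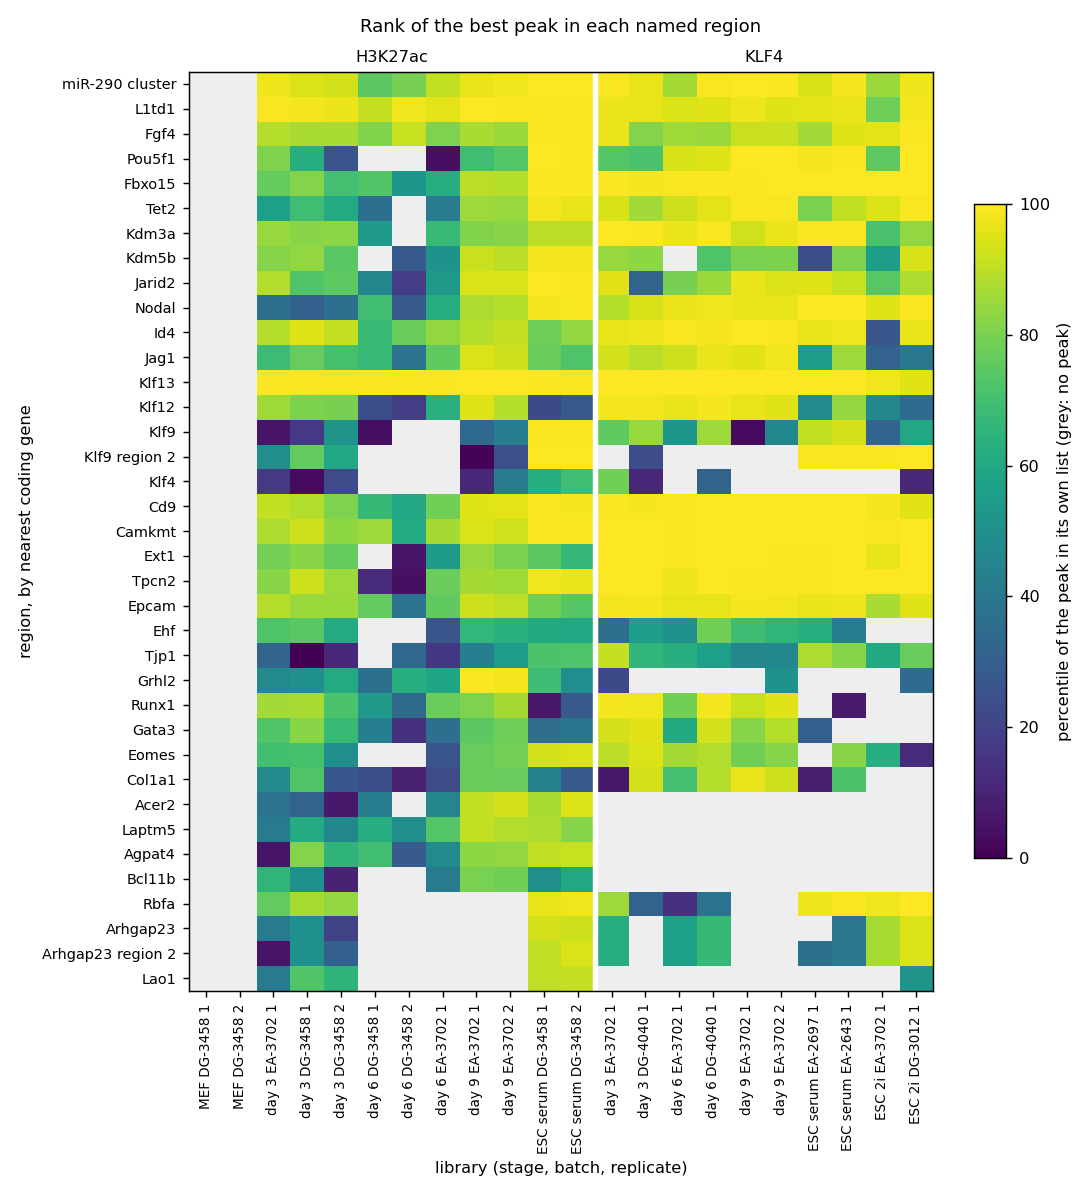
Percentile of the strongest peak in its own list (colour, 100 strongest; grey, no peak) for named gained regions (rows) in 12 H3K27ac and 10 KLF4 libraries (columns). Rows from Acer2 to Bcl11b have no KLF4 peak, rows from Rbfa to Lao1 no H3K27ac peak on day 6 or day 9, and no row has a MEF peak.

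The regions with KLF4 in 10 of 10 libraries and the best mean KLF4 rank were those nearest to Camkmt, Fbxo15, Tpcn2, Ext1, Klf13 and Cd9. At Cd9, a tetraspanin gene of ESC and other cells (22.4 kb away, chr6:125429501-125437857), H3K27ac ranked at 90.9, 88.5 and 80.5 on day 3, 67.0, 60.5 and 78.8 on day 6, 95.3 and 95.9 on day 9, and 99.0 and 98.6 in ESC, and KLF4 at 95.5 to 99.9. At the other end, the regions at Acer2, Laptm5, Agpat4 and Bcl11b had no KLF4 peak in any library and the best day 9 H3K27ac ranks of the 74 such regions. Acer2, a ceramidase gene (chr4:86930150-86931831), had H3K27ac at 37.5, 31.9 and 6.89 on day 3 and 91.0 and 93.5 on day 9, and Laptm5 (chr4:130919951-130922913) at 40.7, 61.4 and 45.8 and at 90.8 and 88.3. The regions at Rbfa, Arhgap23 (2 of them) and Lao1 had H3K27ac on day 3 and in ESC but in no day 6 or day 9 library; the 2 at Arhgap23 had the same best KLF4 peaks in most libraries and lie next to each other. The Lao1 region (56.1 kb away, chr4:119025048-119027788) had H3K27ac at 40.7, 72.9 and 65.1 on day 3 and 90.6 and 91.3 in ESC.

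Some regions clustered. Another gained region lay within 10 kb of 176 of the 1110 (15.9%) and within 50 kb of 310 (27.9%). The gene with the most gained regions as their nearest was the histone gene H4bc24 on chromosome 13 with 6, which lay 12.4 to 40.7 kb from it. Reads may be shared there between near-identical copies of histone genes, so the values of these regions are uncertain. Epb41l4a had 5, and Lyplal1, Fnbp1 and Ankrd6 were among those with 4. The regions nearest to Lyplal1 lay 137.4 to 147.0 kb from it. The 4 at Ankrd6 had KLF4 in 9, 7, 7 and 10 libraries. The region holding the promoter shown above (chr4:32949917-32951349) had KLF4 at the 75.5 to 98.7 percentile and H3K27ac in 5 of 5 day 6 and day 9 libraries.

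The 1063 gained regions off chromosome 18 held 140 promoter windows of 118 genes. KLF4 peaks overlapped 68 and 54 of the 140 on day 3 (48.6% and 38.6%, against 25.8% and 14.9% of all windows), 63 and 56 on day 6 (against 26.9% and 15.5%), 55 and 58 on day 9 (against 18.5% and 20.5%), 47 and 70 in serum ESC (against 15.5% and 23.7%), and 54 and 47 in 2i (38.6% and 33.6%, against 22.7% and 20.2%). GGGNGNGGC occurred in 48 of 140 (34.3%), against 25.9% of all 32619 windows, 30.7% of windows in late ESC regions and 44.1% in shared regions. It was in 8 of the 13 windows with KLF4 in all 10 libraries, 36 of the 81 with KLF4 in some and 4 of the 46 with none. The octamer was in 5 (3.57%, against 1.75% of all windows), ACAAAG in 36 (25.7%, against 18.7%), ACAATG in 9 (6.43%, against 12.2%), the AP-1 motif in 12 (8.57%, against 7.85%), the TATA box in 12 (8.57%, against 13.7%) and GGGTGTGG in 4 (2.86%, against 3.57%). Median GC was 54.7% in these windows and 53.0% in all. A match is a description of the letters and shows no binding.

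The choice of regions depended on how the lists were read. At the edge of the rule, 582 regions had peaks in 2 of the 3 day 3 libraries, none in MEF and both in ESC; H3K27ac was at 21.6% of these on day 6 and 75.2% on day 9 and KLF4 at 49.1% on day 3. The 111 gained regions with the weakest peaks had 37.8%, 79.7% and 61.7%. In 207 more regions a peak in 1 of the 2 MEF libraries alone kept them out, with 51.0%, 87.9% and 64.3%. When each library gave only as many top peaks as the shortest list of its kind, 534 regions met the rule, and 191 of the 1110 (17.2%) overlapped one of them; of the 534, 192 (36.0%) overlapped one of the 1110. In that set KLF4 was at 80.1%, 80.5%, 77.9%, 77.0% and 61.4% from day 3 to 2i, H3K27ac was at 84.0% on day 6, and 36.7% lay within 2.5 kb of a gene end. The comparison sets moved too. Late ESC regions numbered up to 46847 when either ESC library was left out and 5432 with equal lists, day 3 regions absent from ESC 3821 without the second DG-3458 library of day 3 and 1735 with equal lists, and shared regions 5622 with equal lists. The part of list length and of the stage cannot be told apart, since every MEF list was longer than every day 3 list.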

How the data were processed

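H3K27ac and KLF4 had been mapped by ChIP-seq; per the labels' protocols, reads were single-end. The submitters' processing notes name mm10, cutadapt 1.8.1, Bowtie2 2.2.5, deepTools 2.3.6 and MACS2 2.1.1; peak calling settings and the control are not given in the sources used here. The authors deposited 1 peak list per library, giving each peak's score, fold enrichment (ratio), −log10 p-value and −log10 q-value. The fold, score, p and q are the authors' own and served to rank, filter or describe peaks within a list. Read counts are not part of the lists, so depth is unknown and the spread between libraries is the only measure of precision. The 13 input libraries were not analysed here.

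Peaks were merged and overlapped with NumPy 2.4.6 in Python 3.11.15 (minimum 1 bp), and a region's value in a library is the percentile of its best peak by the deposited −log10 p. The background beside a count is the share of all 179334 merged regions that meets the same condition. Each test was a two-sided exact permutation test that took 1 value from each library, with Benjamini-Hochberg adjustment over 13 tests, 2 of them added after the values were seen, and a threshold of 0.05. Alternatives were judged on unadjusted p. Members, gene lists and comparisons were chosen with earlier results of these data known. Ranks follow −log10 p where the naming rule had the score. Named were, for each list, at most 6 regions by number of KLF4 libraries and then day 9 rank, the 6 best with KLF4 in all libraries, the 4 best at day 9 with KLF4 in none, the 4 best in ESC with no day 6 or day 9 peak, and the 5 genes with most regions; the miR-290, Eed and Mycn regions, the choice of sequences shown, the Ankrd6 promoter and the examples of the cassette genes were chosen after their values were seen. Genes, promoters and microRNAs came from RefSeq (GRCm38.p6); all listed genes were matched. The code was tested on simulated lists.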

Additional observations from a re-analysis of the deposited data

How the results depend on the processing

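The higher KLF4 share of gained over late ESC regions had a mean difference of 33.3 to 60.8 percentage points and an unadjusted p under 0.05 in every alternative run, but in the middle width range both 2i libraries had the opposite sign (-5.49 each). Other results were less stable, and the cause of each change was not tested. The number of regions was 534 with lists of equal length, 697 with a q-value of at most 0.01 and 542 with the top 50% of each list; 59.8% and 35.0% of the 1110 overlapped a region of the last 2. Merging only the lists the rule uses, an alternative chosen after seeing the data like the match on ESC rank and the runs without 2i, gave 1237 regions. The gene end share was 36.7% with equal lists, and 10.5% and 39.1% at 500 bp and 10 kb. The between-group F of KLF4 lost its unadjusted call with equal lists (17.8, p = 0.0656, exact permutation test), with the q-value limit (6.03, p = 0.0529) and without 2i (1.79). The change by day of the gap to late ESC regions lost it with the q-value limit (-1.94 per day, p = 0.111, exact permutation test) and with the top 50% (-2.53, p = 0.0667). The contrast with day 3 regions absent from ESC gained it with equal lists (30.8), at the middle width (35.0) and without 2i (22.8), and was 6.06 to 14.8 with the other choices of peaks and regions; its H3K27ac counterpart between days 9 and 6 was reversed at the middle width (-6.90). The day 9 minus day 6 difference of H3K27ac was 7.55 with equal lists and 35.0 to 44.4 with the other choices. The contrast with shared regions lost it with equal lists (-7.67) and without 2i (-8.96).

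With any of the 6 KLF4 libraries of day 3 to day 9 left out, the test over those days can give no p below 0.0625. The F lost its unadjusted call without day 3 EA-3702, either day 6, either day 9 or the 2i EA-3702 library, the change by day without either day 6 or day 9 library, and the contrast with shared regions without day 3 DG-4040, day 6 DG-4040, either day 9 or either 2i library. The contrast with day 3 regions absent from ESC gained it without 2i EA-3702.

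Leaving out 1 library at a time, the number of regions was 1110 to 1470, the highest without day 3 DG-3458 replicate 2, and the gene end share 16.8% to 18.5%. The KLF4 slope by day ranged from -2.16 to -0.470, the F from 3.57 to 10.1, the gap to late ESC regions from 48.5 to 57.1 over 10 libraries and 60.1 to 67.5 over day 3 to day 9, its change by day from -2.81 to -1.37, the contrast with day 3 regions absent from ESC from 8.04 to 19.2, that with shared regions from -24.5 to -14.6, and the 2i step from -28.4 to -16.9. H3K27ac differences ranged from 28.9 to 43.3 (day 9 minus day 6), 56.9 to 68.2, 33.2 to 40, 0.781 to 11.1, and 29.1 to 43.9 (with against without KLF4). With a replicate block, permuting within libraries of the same title number, the day 9 minus day 6 difference of 35.0 had p = 0.333 (exact permutation test); the numbers are names, no label ties libraries by them, and the block changed no call.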
